A study of Sus scrofa with 9 samples.

Results

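Acute phase proteins are plasma proteins whose synthesis by the liver changes during infection, injury and inflammation. The 10 genes described here, FGA, FGB, FGG, CRP, ORM1, LBP, ITIH4, ITIH3, ALB and SOCS3, were chosen by their symbols in the liver expression table of 9 Wujin pigs. CRP stood on 2 separate gene rows of that table, here CRP copy 1 and CRP copy 2, so that the 10 symbols gave 11 rows of 25918 genes in all. All 11 rows passed the filter on low values, a mean of at least 0.5 FPKM (a fragment count scaled to transcript length and to sequencing depth), which 12584 genes passed.

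The pigs came from an experiment on the amount of iron in the feed, and liver RNA of 3 pigs on each of 3 diets was sequenced. All groups ate the same basic diet. The low-iron group received 0 mg/kg of added iron, the control group 100 mg/kg and the high-iron group 200 mg/kg, the latter amounts as iron glycinate. The pigs were 35 days old at the start, had 5 days of pre-feeding and were fed for 30 days, and each pig was housed alone. Both sexes were used, and the sex of the pig behind a library is not given in the labels. The libraries are named here by group and animal number. The low-iron libraries are 2, 3 and 7, the control libraries 4, 5 and 6, and the high-iron libraries 2, 7 and 8. The same number in 2 groups is not stated to mark a shared litter or pen.

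During an acute phase response, interleukin-6 from macrophages acts on hepatocytes through the gp130 receptor and the transcription factor STAT3, while interleukin-1 acts through NF-kappa B and C/EBP factors. Positive acute phase genes such as the fibrinogen chains, CRP, LBP and ITIH4 are then transcribed more, and negative ones such as ALB less. SOCS3 is induced by STAT3 and blocks further signalling from the receptor. In pigs, ITIH4 is known as pig-MAP, a major acute phase protein of this species.

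Fibrinogen, the soluble precursor of the fibrin clot, is assembled from pairs of alpha, beta and gamma chains encoded by FGA, FGB and FGG. In the Sscrofa11.1 assembly the 3 genes lie side by side on chromosome 8. FGG spans 74553040 to 74562151 and FGA 74574870 to 74584202, both on the plus strand, and FGB spans 74598170 to 74607409 on the minus strand. The cluster covers 54370 bp, with 12718 bp between FGG and FGA and 13967 bp between FGA and FGB. The 160 bases before the annotated start of each chain gene are given because the 3 chains moved together across the libraries, and those of ITIH4 because it had the widest spread of all 11 rows. They were read from the Sscrofa11.1 genome, 5′ to 3′ on the strand of the gene, and capitals mark matches on either strand to the STAT site TTCNNNGAA or the interleukin-6 response element core CTGGGAA.
FGA (chr8:74574710-74574869, plus strand): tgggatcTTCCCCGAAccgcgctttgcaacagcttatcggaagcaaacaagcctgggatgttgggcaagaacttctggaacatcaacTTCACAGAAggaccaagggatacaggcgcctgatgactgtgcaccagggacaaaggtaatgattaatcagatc
FGB (chr8:74607410-74607569, minus strand): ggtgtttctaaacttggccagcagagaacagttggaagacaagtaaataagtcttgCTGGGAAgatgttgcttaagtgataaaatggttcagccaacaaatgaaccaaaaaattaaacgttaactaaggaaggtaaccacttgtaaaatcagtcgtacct
FGG (chr8:74552880-74553039, plus strand): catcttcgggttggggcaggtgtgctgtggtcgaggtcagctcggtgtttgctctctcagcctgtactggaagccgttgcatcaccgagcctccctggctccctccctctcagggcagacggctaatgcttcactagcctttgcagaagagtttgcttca
ITIH4 (chr13:34948251-34948410, minus strand): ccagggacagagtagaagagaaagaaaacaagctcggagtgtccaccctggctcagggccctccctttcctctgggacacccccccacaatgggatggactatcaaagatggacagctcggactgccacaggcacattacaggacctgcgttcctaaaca

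In windows of 250 bases before the start, TTCNNNGAA was found for FGA, at 2 places, and for SOCS3, against 6.4% of 20664 promoters of the annotation. CTGGGAA was found for FGB and ITIH3, against 12.5% of promoters, and neither motif was found in these windows of FGG or ITIH4. TTNNGNAA, a loose form of the C/EBP site that can overlap the STAT site, was found in 7 of 11 members and in 32.7% of promoters. GTTAAT, part of the site of the hepatocyte factor HNF1, was found for ALB (6.3% of promoters), TGTTCT, part of the site of the glucocorticoid receptor, for CRP copy 1, FGB and ITIH3 (10.6%), and TATAAA for ORM1 (10.4%). These matches describe letters only, and annotated starts may lie away from the starts used in liver.

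The fibrinogen chains were among the most abundant transcripts of the liver. By mean FPKM over the 9 libraries FGB ranked 3 of all genes, FGG 6 and FGA 7. FGB measured 6357, 10122 and 6701 FPKM in low-iron libraries 2, 3 and 7. In control libraries 4, 5 and 6 it measured 12048, 6524 and 13786 FPKM, and in high-iron libraries 2, 7 and 8 it measured 8290, 10144 and 6472 FPKM. Control 4 and control 6 were the highest of all libraries, while control 5 sat with the lowest, so that the groups overlapped in every comparison.

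FGA, the chain that carries fibrinopeptide A, measured 4072, 6400 and 3783 FPKM in the low-iron group, 7179, 4270 and 8465 FPKM in the control group, and 4868, 5676 and 3912 FPKM in the high-iron group. FGG, the chain that carries much of the platelet-binding and cross-linking sequence of fibrinogen, measured 4825, 6844 and 4711 FPKM, 7867, 4553 and 9473 FPKM, and 6008, 6537 and 4600 FPKM in the same order. For all 3 chains the same 4 libraries were the lowest, namely low-iron 2, low-iron 7, control 5 and high-iron 8, and control 4 and control 6 were the highest.

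**Figure D1:**
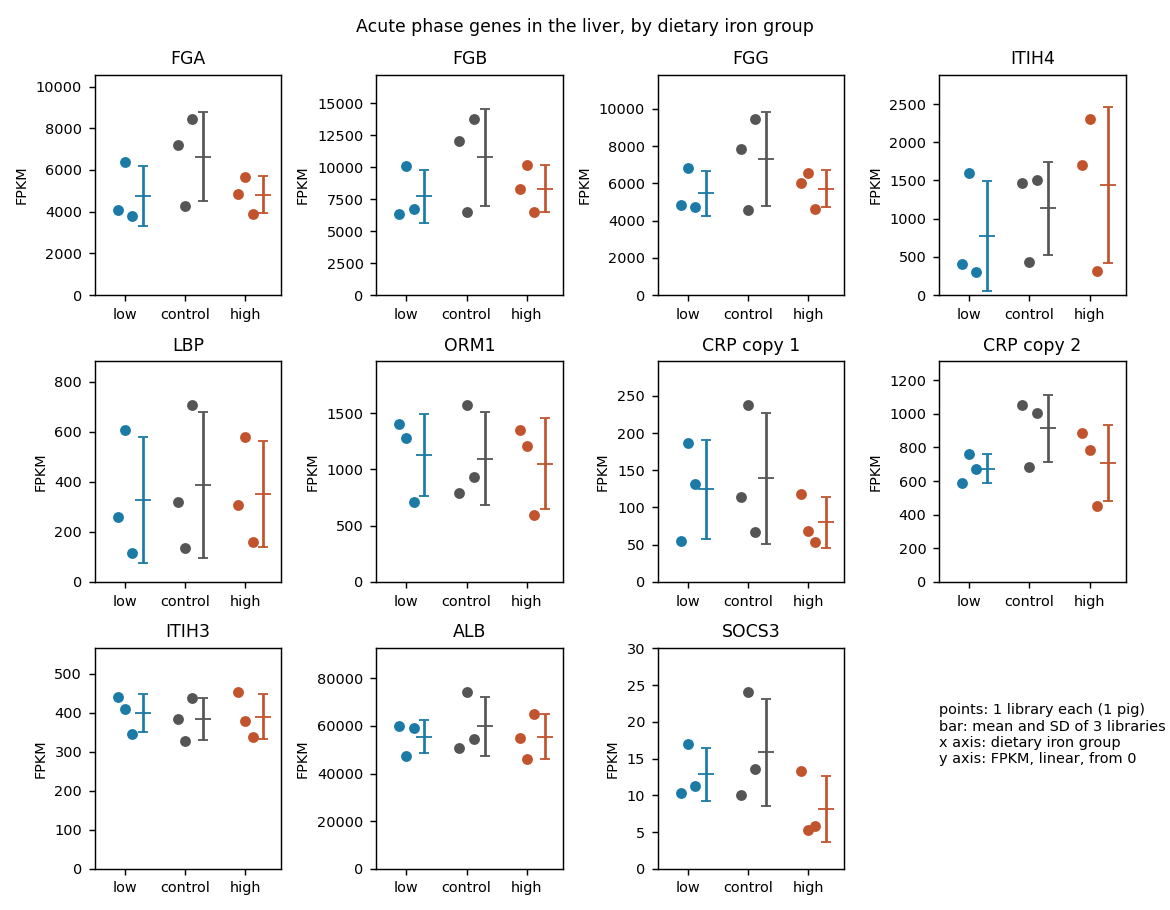
FPKM (y axis, linear, from 0) of each of the 11 gene rows by dietary iron group (x axis). Each point is 1 library from 1 pig, and the bars beside the points give the mean and SD of 3 libraries. The groups overlap in every panel, and control 5 sits at 6524 FPKM for FGB, below control 4 and control 6.

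The group means of the chains were highest in the control group, but no difference passed the test against the spread between pigs. FGB averaged 7727 ± 2082 FPKM (SD, n = 3) in the low-iron, 10786 ± 3792 FPKM in the control and 8302 ± 1836 FPKM in the high-iron group. A gene was called changed here when its fold change was at least 2 and its unadjusted p was below 0.05 in limma, the thresholds used by the study. In low-iron against control, the log2 fold change of FGB was -0.44 with a 95% interval from -1.27 to 0.38, that of FGA was -0.47 (-1.23 to 0.30), and that of FGG was -0.38 (-1.13 to 0.38). In high-iron against control the values were -0.33 for FGB (-1.15 to 0.49), -0.42 for FGA (-1.19 to 0.34) and -0.30 for FGG (-1.06 to 0.45). Both comparisons share the 3 control libraries, and control 5 and control 6 decide much of the size. Without control 5, the low-iron values were -0.77 for FGB, -0.75 for FGA (just past the unadjusted 0.05 in limma, with an adjusted limma p of 0.984) and -0.68 for FGG, and the high-iron values -0.66, -0.71 and -0.61. Without control 6 they were -0.23, -0.26 and -0.15 for low-iron and -0.12, -0.22 and -0.08 for high-iron. No chain was called without any 1 library. In high-iron against low-iron the 3 chains lay between 0.04 and 0.11. All these intervals include 0, and the 6 against control reach past a 2-fold decrease, so that 3 pigs in a group leave a change of that size within the error. In whole tissue, fewer cells of a type and less RNA per cell cannot be told apart.

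None of the 11 rows was called in any comparison. In low-iron against control 0.882% of all tested genes were called, in high-iron against control 1.57%, and in high-iron against low-iron 1.54%. Over the 12584 genes limma called 111, 197 and 194 genes, and an unadjusted p below 0.05 was reached by 463, 704 and 900 genes. With 1 library left out the calls ranged from 111 to 209, from 190 to 296 and from 186 to 333. After Benjamini-Hochberg adjustment over all genes in limma, 0% of genes passed 0.05 in low-iron against control, 0.00795% (1 gene) in high-iron against control and 0% in high-iron against low-iron, and no member was among them. Of the members, an unadjusted p below 0.05 was reached by 0, 1 and 0 rows, the 1 being SOCS3. The groups did not overlap for 8.34% of all genes in low-iron against control, 10.9% in high-iron against control and 13.2% in high-iron against low-iron, and for 0 of 11 members in each. An exact permutation test over the 3 groups gave p below 0.05 for 5.37% of all genes and for 0 members, and 0% after adjustment. The smallest member value was 0.196, for SOCS3, and without high-iron 2 its exact permutation p was 0.0464 before adjustment over all genes and 0.858 after it. With 3 against 3 libraries the smallest 2-sided exact permutation p of a pair of groups is 0.1.

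**Figure D2:**
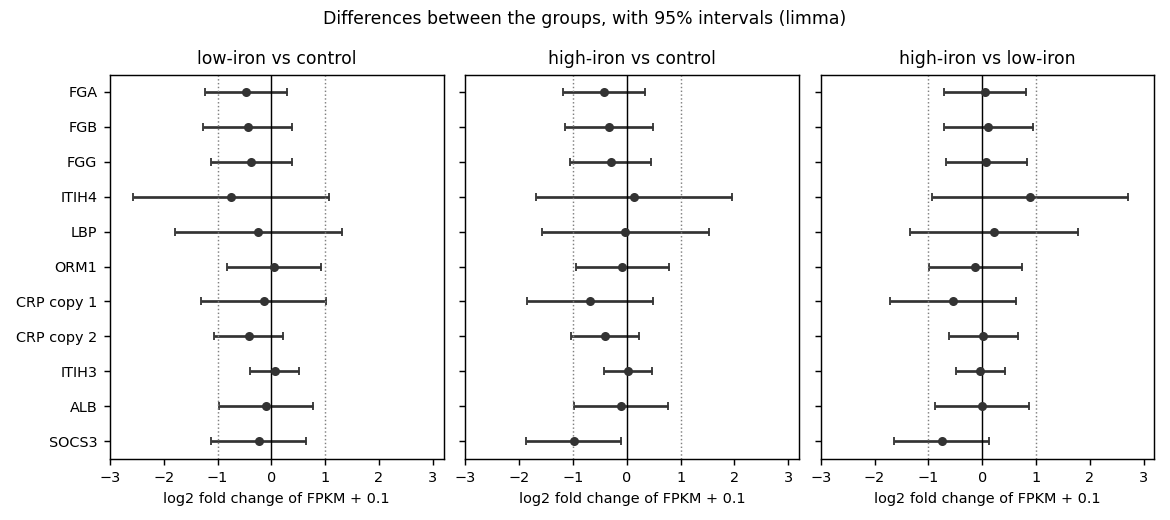
Log2 fold change of FPKM + 0.1 (x axis) for each of the 11 gene rows (y axis) in the 3 comparisons, with 95% intervals from limma. Dotted lines mark a 2-fold difference, and the interval of SOCS3 in high-iron against control, from -1.87 to -0.11, is the only one that does not include 0.

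The 3 chains kept their proportions while their levels moved. The ratio of FGA to FGB ranged from 0.560 to 0.654 over the 9 libraries, that of FGG to FGB from 0.644 to 0.759, and that of FGA to FGG from 0.803 to 0.938. FGB itself varied 2.17-fold between its lowest and highest library. No difference between the groups was detected in the 3 ratios, with exact permutation p of 0.379, 0.575 and 0.207 and adjusted p over the 3 tests of 0.568, 0.575 and 0.568. Without low-iron 3, the exact permutation p of FGA to FGG was 0.025, and 0.075 after adjustment.

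Across the 9 libraries, levels on the log2(FPKM + 0.1) scale were compared with FGB, and FGA with FGG, and p was adjusted over these 10 relations. All points share their library and its scaling to total fragments. FGA followed FGB with Pearson's r of 0.983 (permutation p = 0.000107, adjusted p = 0.000358) and Spearman's rho of 0.867 (permutation p = 0.00451, adjusted p = 0.0113). FGG followed FGB with r of 0.990 (permutation p = 9.09e-05, adjusted p = 0.000358) and rho of 0.867 (permutation p = 0.00451, adjusted p = 0.0113), and FGA followed FGG with r of 0.983 (permutation p = 4.41e-05, adjusted p = 0.000358) and rho of 0.883 (permutation p = 0.00308, adjusted p = 0.0113). Without control 4 and control 6, the libraries farthest from the median of FGB, these values were 0.956, 0.980 and 0.953. For the deviations from the group means they were 0.985, 0.988 and 0.984, so the chains also moved together among pigs on the same diet. Under quantile normalization, which fixes the highest values of every library to the same numbers, r with FGB was 0.579 for FGA and 0.543 for FGG, and the adjusted permutation p were 0.310 and 0.326.

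**Figure D3:**
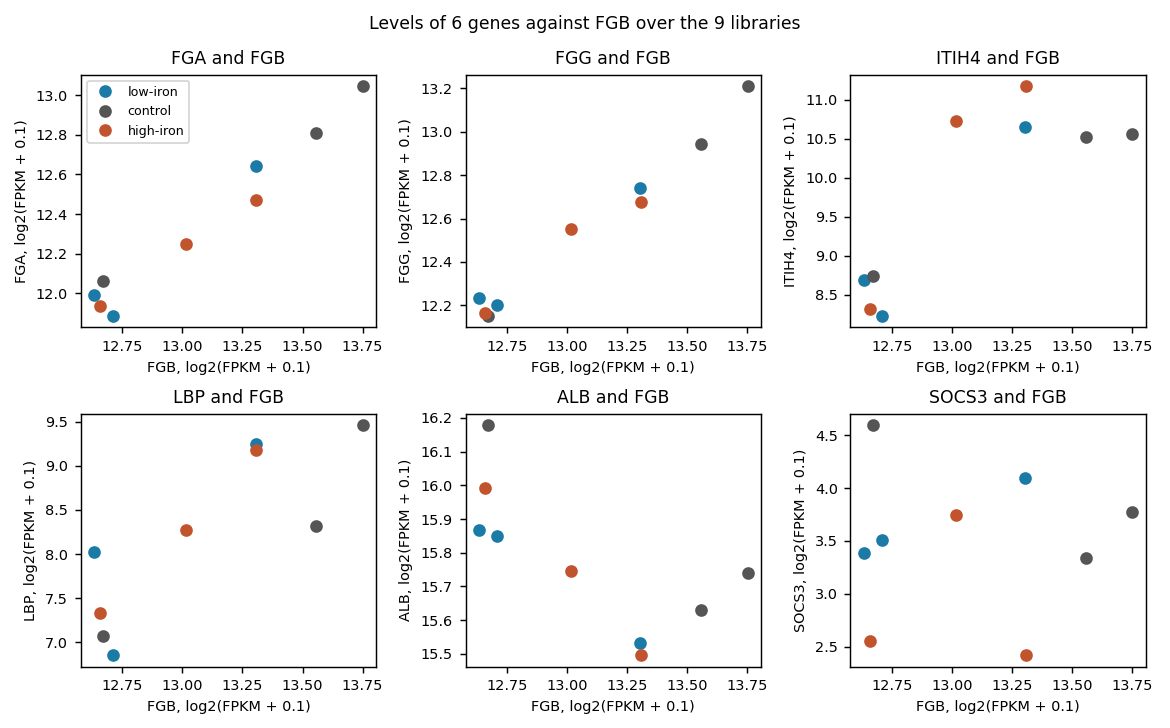
Level of FGA, FGG, ITIH4, LBP, ALB and SOCS3 (y axes) against FGB (x axis), both as log2(FPKM + 0.1), in the 9 libraries coloured by group. FGA and FGG lie along a line with FGB (r of 0.983 and 0.990), ALB runs the other way (r of -0.713), and the r of SOCS3 was -0.012.

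CRP copy 2 and LBP also followed FGB, but not past the test under quantile normalization (r of 0.406 with an adjusted permutation p of 0.504, and r of 0.611 with 0.310). That setting assigns values by rank, and FGB ranked 3 of all genes. It can therefore remove variation of FGB itself and cannot decide whether these genes followed it. With median-of-ratios scaling r was 0.845 for CRP copy 2 and 0.824 for LBP. C-reactive protein is a pentraxin that binds phosphocholine on microbes and damaged cells. CRP copy 1 lies on chromosome 4 from 90782741 to 90785051 and CRP copy 2 from 90793361 to 90801020, both on the plus strand and 8309 bp apart, and their coding sequences were identical at 78.77% of 669 aligned bases. Reads that fit both copies could be shared between the rows, so the level of each is uncertain to that extent. CRP copy 2 measured 587, 764 and 671 FPKM in the low-iron, 1050, 687 and 1003 FPKM in the control, and 884, 785 and 452 FPKM in the high-iron group. CRP copy 1 was lower, at 54.6, 187 and 132 FPKM, 114, 237 and 66.7 FPKM, and 119, 68.0 and 53.7 FPKM. The 2 copies differed in which libraries were high, since control 5 had the highest value of copy 1 and was among the 4 lowest of copy 2. The r with FGB was 0.835 for copy 2 (permutation p = 0.00405, adjusted p = 0.0101), with rho of 0.900 (permutation p = 0.00203, adjusted p = 0.0113), and 0.677 without control 4 and control 6. For copy 1 the r was -0.048 (permutation p = 0.897, adjusted p = 0.975), rho was 0.117 (permutation p = 0.776, adjusted p = 0.862), and r was 0.162 without those libraries, and the sign of r differed between settings. Against control, copy 2 had log2 fold changes of -0.42 in low-iron (95% interval -1.06 to 0.22) and -0.40 in high-iron (-1.04 to 0.24), and copy 1 had -0.14 (-1.31 to 1.02) and -0.69 (-1.85 to 0.48).

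LBP, which passes bacterial lipopolysaccharide to CD14, lies on chromosome 17 from 41398935 to 41429467. It measured 260, 607 and 116 FPKM in the low-iron, 319, 134 and 704 FPKM in the control, and 309, 578 and 161 FPKM in the high-iron group, so that each group held both low and high libraries. The lowest of all was low-iron 7 and the highest was control 6. The r with FGB was 0.831 (permutation p = 0.00958, adjusted p = 0.0192) and rho was 0.767 (permutation p = 0.0214, adjusted p = 0.0357), and r was 0.900 without control 4 and control 6. Without control 6 alone, r was 0.771 and its adjusted permutation p was 0.0539, and without high-iron 2 they were 0.834 and 0.0520. The log2 fold change was -0.24 in low-iron against control (95% interval -1.80 to 1.31) and -0.02 in high-iron against control (-1.58 to 1.53).

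ITIH4 had the widest spread. It is an inter-alpha-trypsin inhibitor family member secreted by the liver, on the minus strand of chromosome 13 from 34928455 to 34948250, and ITIH3, a heavy chain that is linked to hyaluronan, lies 3573 bp away on the plus strand from 34911104 to 34924881. ITIH4 measured 412, 1601 and 300 FPKM in the low-iron, 1468, 426 and 1504 FPKM in the control, and 1696, 2309 and 319 FPKM in the high-iron group. The values fell in 2 separate ranges, with low-iron 2, low-iron 7, control 5 and high-iron 8 between 300 and 426 FPKM and the other 5 libraries between 1468 and 2309 FPKM. Both ranges held pigs of all 3 groups. Because of the gap no pooled correlation with FGB is given, and none is given within the ranges, which hold 4 and 5 libraries, fewer than 6. The log2 fold change of ITIH4 in high-iron against low-iron was 0.89 with a 95% interval from -0.93 to 2.70. Without high-iron 8, the only high-iron library in the lower range, it was 1.76 and met the thresholds for a call. The unadjusted limma p of that fit was 0.0374 and the adjusted limma p 0.957. A gene of the same strand that overlaps ITIH4, LOC100153598, was at 1.54 to 4.02 FPKM.

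ITIH3 barely varied. Its values were 440, 409 and 345 FPKM in the low-iron, 383, 328 and 436 FPKM in the control, and 452, 379 and 338 FPKM in the high-iron group. The lowest and highest libraries differed by 1.38-fold, and the 95% interval of its log2 fold change ran from -0.39 to 0.51 in low-iron against control, from -0.42 to 0.47 in high-iron against control and from -0.48 to 0.41 in high-iron against low-iron. These were the narrowest intervals of the members, and a 2-fold change lay outside them. The r with FGB was 0.441 (permutation p = 0.227, adjusted p = 0.324), rho was 0.233 (permutation p = 0.552, adjusted p = 0.690), and r was 0.373 without control 4 and control 6.

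**Figure D4:**
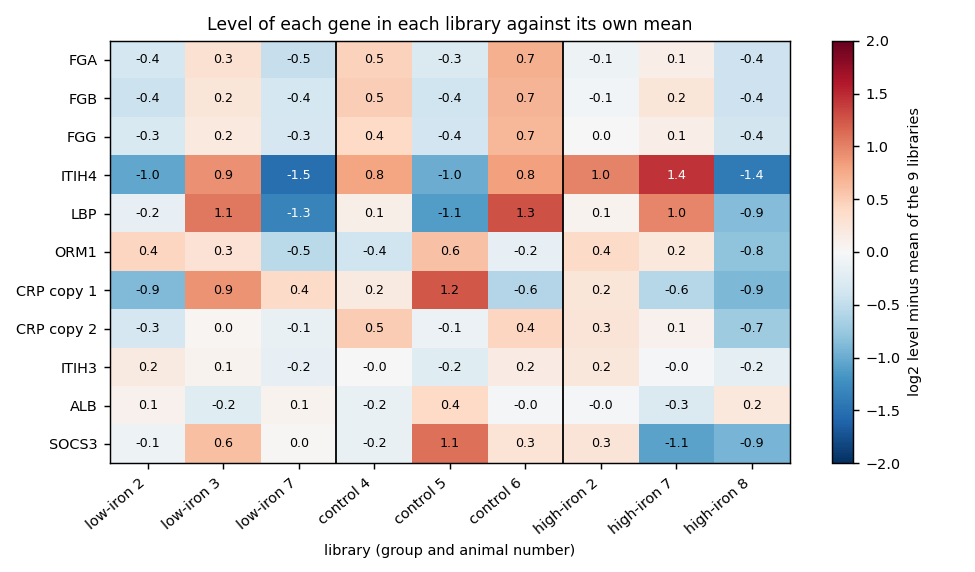
Log2 level of each gene row (y axis) in each library (x axis, ordered by group) minus its mean over the 9 libraries, as colour and number. FGA, FGB, FGG, ITIH4, LBP and CRP copy 2 are lowest in low-iron 2, low-iron 7, control 5 and high-iron 8, where ALB is highest.

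The 4 libraries that were lowest for FGB were also the 4 lowest for FGA, FGG, CRP copy 2, ITIH4 and LBP. This set of 4 was the lowest for 118 of 12584 tested genes, or 0.938%, and it was the highest for 164 genes, or 1.303%, ALB among them. The pattern was found by looking at the members, and it crosses the diets, since low-iron gave 2 of the 4 libraries and each other group gave 1.

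ALB, the main plasma protein and a negative acute phase gene, lies on chromosome 8 from 69643427 to 69663152 and had the highest FPKM of all genes. It measured 59834, 47397 and 59000 FPKM in the low-iron, 50731, 74134 and 54694 FPKM in the control, and 54997, 46231 and 65181 FPKM in the high-iron group. Control 5, low in the fibrinogen chains, had the most ALB. The r with FGB was -0.713 (permutation p = 0.0319, adjusted p = 0.0532) and rho was -0.783 (permutation p = 0.0172, adjusted p = 0.0344), and r was -0.896 without control 4 and control 6. FPKM are shares of a library. After rescaling without the 10 highest genes, a list that holds ALB and the 3 chains, r of ALB with FGB was -0.597 (adjusted permutation p = 0.145), and with median-of-ratios scaling it was -0.408 (adjusted permutation p = 0.399). The log2 fold change of ALB was -0.10 in both comparisons with control, with 95% intervals from -0.98 to 0.78 in low-iron and from -0.98 to 0.77 in high-iron.

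ORM1, the lipocalin known as alpha-1-acid glycoprotein, lies on chromosome 1 from 254939154 to 254943065. It measured 1400, 1278 and 715 FPKM in the low-iron, 791, 1569 and 930 FPKM in the control, and 1353, 1208 and 596 FPKM in the high-iron group, with high and low libraries in each group. The r with FGB was -0.059 (permutation p = 0.877, adjusted p = 0.975), rho was -0.233 (permutation p = 0.552, adjusted p = 0.690), and r was 0.305 without control 4 and control 6. AKNA, which overlaps ORM1 on the other strand, was at 0.757 to 2.63 FPKM. The log2 fold change of ORM1 was 0.05 in low-iron against control (95% interval -0.82 to 0.92) and -0.08 in high-iron against control (-0.95 to 0.79). The sign of the first changed with the scaling, and that of the second without control 5 (0.21) and without high-iron 8 (0.29).

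SOCS3, the feedback inhibitor of gp130 signalling, lies on chromosome 12 from 3643832 to 3647015 and came nearest to a call. It measured 10.3, 17.0 and 11.3 FPKM in the low-iron, 10, 24.0 and 13.5 FPKM in the control, and 13.4, 5.26 and 5.78 FPKM in the high-iron group. High-iron 7 and high-iron 8 were the lowest of all libraries, while high-iron 2 lay among the other groups. In high-iron against control the log2 fold change was -0.99 (SE 0.40, 95% interval -1.87 to -0.11), with an unadjusted limma p of 0.0311, an adjusted limma p of 0.892 and an exact permutation p of 0.2. It missed the 2-fold threshold by a small margin. With median-of-ratios scaling the value was -1.12, with quantile normalization -1.09 and after rescaling without the 10 highest genes -1.01, and in each of these it was called. It was also called without control 4 (-1.27), without control 6 (-1.06) and without high-iron 2 (-1.41), with adjusted limma p from 0.790 to 1.000 over these 6 fits. In high-iron against low-iron it was -0.75 (-1.64 to 0.13), and without high-iron 2 it was -1.17 and was called, with an adjusted limma p of 0.621. In low-iron against control it was -0.24 (-1.12 to 0.65). The r of SOCS3 with FGB was -0.012 (permutation p = 0.975, adjusted p = 0.975), rho was 0.033 (permutation p = 0.948, adjusted p = 0.948), and r was -0.115 without control 4 and control 6.

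Markers of other liver cells had mostly positive values in the same comparison, and few were called. In high-iron against control, calls were made for 1 of 11 Kupffer cell and macrophage, 1 of 7 T cell, 1 of 7 endothelial, 2 of 7 stellate cell and fibroblast and 0 of the other markers tested, all of them higher in high-iron. Over all tested genes 1.57% were called, 160 higher and 37 lower, and the groups did not overlap for 10.9%. The share of positive values over all genes was not counted. By sign alone, 11 of 11 Kupffer cell and macrophage markers had a positive log2 fold change, with a median of 0.571 beside 0.098 over all tested genes, and their summed level was 588 to 797 FPKM in the control and 910 to 1128 FPKM in the high-iron group. T cell markers were positive in 7 of 7 with a summed level of 16.7 to 28.5 FPKM in the control and 26.4 to 47.9 FPKM in the high-iron group, endothelial markers in 6 of 7 (192 to 226 and 235 to 275 FPKM), and stellate cell and fibroblast markers in 6 of 7 (102 to 137 and 148 to 279 FPKM). The 10 hepatocyte markers summed to 9308 to 12538 FPKM over all libraries, so the defining markers of liver tissue were present, with 2 of 10 positive and a median of -0.06. No marker of these lists was at 0 in every library. Positive values were also seen in 5 of 5 neutrophil, 4 of 7 B and plasma cell, 3 of 4 bile duct and 0 of 2 erythroid markers tested. The part of cell makeup in the SOCS3 values was not tested.

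Pigs on the same diet differed in most of these genes by more than in the median gene. The SD between pigs of a group on the log2 scale was 1.30 for ITIH4, 1.11 for LBP, 0.821 for CRP copy 1, 0.601 for SOCS3, 0.564 for ORM1, 0.437 for FGB, 0.411 for FGA, 0.393 for FGG and 0.372 for CRP copy 2, beside a median of 0.338 over all tested genes. ALB (0.246) and ITIH3 (0.199) were below that median. Among 511 genes with a mean of at least 100 FPKM the median SD was 0.297, and 8 of the 10 members in this range lay above it. Differences between group means held 1.4% of the variance of LBP and of ORM1, 21.8% of that of FGB and 42.5% of that of SOCS3, beside a median of 20.5% over all tested genes. Means of 3 pigs also differ when diet has no effect, so these shares do not measure an effect of diet. The exact permutation p of SOCS3 over the 3 groups was 0.196.

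**Figure D5:**
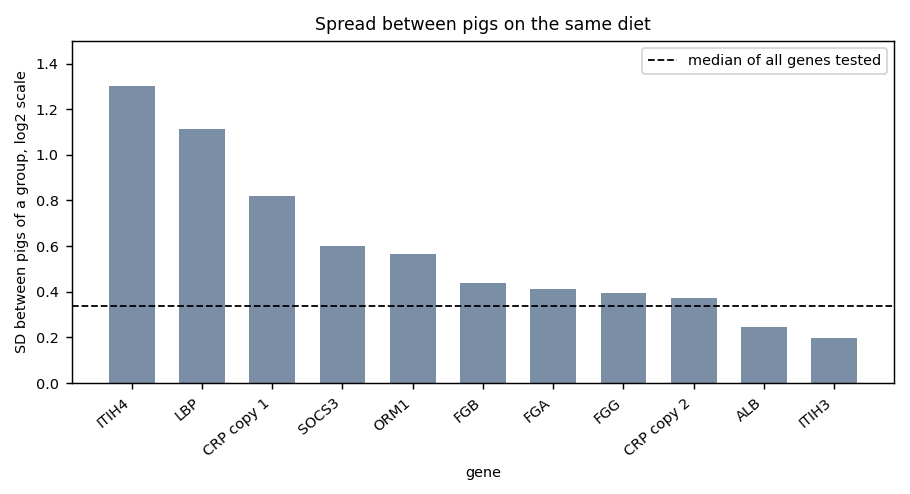
SD between pigs of the same group on the log2 scale (y axis) for each of the 11 gene rows (x axis), from the highest to the lowest. The dashed line is the median of all tested genes, 0.338, and ALB and ITIH3 are the rows below it.

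Members took 16.86% to 21.87% of the summed FPKM of a library, 3.85% to 7.97% without ALB, and the fibrinogen chains alone 3.35% to 6.95%. The lowest share of the chains was that of low-iron 7 and the highest that of control 6.

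Among named genes that are no members, those whose levels followed FGB most closely over the 9 libraries were HP (r of 0.945), which encodes the haemoglobin-binding protein haptoglobin, then XRCC4 (0.924), SLC39A3 (0.913), SLCO2A1 (0.904) and NOD1 (0.904). HP ranged from 10308 to 19837 FPKM, while the other 4 stayed below 5 FPKM. For SOCS3 they included ETS2 (0.926), ZNF200 (0.917), DCUN1D4 (0.902) and LRRC8A (0.893). For CRP copy 1 they were SLC30A6 (0.957), RRP15 (0.917), UTP15 (0.907), IST1 (0.900) and RRN3 (0.883), and for CRP copy 2 NAPB (0.942), SLCO2A1 (0.863), TEAD3 (0.849), XRCC4 (0.846) and HP (0.834). They were taken from the 12584 tested genes after leaving out members and genes with only a LOC number, and are given as a description.

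The wider acute phase programme was described from lists of genes. The list of positive genes counted ORM1, whose class in pigs was not tested here. Of 29 tested rows of positive acute phase genes, members included, 1 was called, MBL2, a mannose-binding lectin, at a log2 fold change of 1.97 (SE 0.85, limma adjusted p = 0.892) in high-iron against control. MBL2 measured 13.1, 36.4 and 18.0 FPKM in the control and 194, 121 and 22.2 FPKM in the high-iron group, which overlap. The median log2 fold change of the 29 rows was -0.20 in low-iron against control, 0.02 in high-iron against control and 0.07 in high-iron against low-iron, beside 0.076, 0.098 and 0.031 over all genes. For the 20 of these rows that are no members, the medians were -0.13, 0.09 and 0.19. HP had log2 fold changes of -0.29 and -0.18 in the comparisons with control. Of 16 tested rows of negative acute phase genes 1 was called, SERPINA6, which encodes the cortisol-binding globulin, at 1.06 in low-iron against control (SE 0.42, limma adjusted p = 1.000). SERPINA6 measured 148, 65.8 and 184 FPKM in the low-iron and 42.7, 100 and 46.0 FPKM in the control group. TF, transferrin, had log2 fold changes of 0.06 in low-iron and -0.004 in high-iron against control on the row with the higher level.

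Of 31 tested genes of interleukin-6 and STAT3 signalling 1 was called, the immediate early gene EGR1, at 1.79 in low-iron against control (SE 0.73, limma adjusted p = 1.000), with 11.9, 32.7 and 7.23 FPKM in the low-iron and 1.85, 14.6 and 2.37 FPKM in the control group. STAT3 itself had log2 fold changes of 0.12 in low-iron and -0.47 in high-iron against control, and IL1R1, an interleukin-1 receptor, had 0.44 and -0.23. In the inter-alpha-trypsin inhibitor family 0 of 6 tested genes were called, with AMBP, the light chain precursor, at -0.003 and -0.04 and ITIH1 at 0.29 and 0.19 in the same comparisons. Of 26 tested clotting genes 2 were called higher in high-iron against control, F13A1 at 1.39 (SE 0.27, limma adjusted p = 0.565) and VWF at 1.68 (SE 0.52, limma adjusted p = 0.885), and F13A1 was also called against low-iron. F13A1, the A subunit of factor XIII, is made mainly by macrophages and megakaryocytes and VWF by endothelial cells. F13A1 was at 0.860, 0.775 and 0.817 FPKM in the control and at 2.55, 2.48 and 1.92 FPKM in the high-iron group, without overlap. Of 16 hepatocyte transcription factors 0 were called. HNF4A had log2 fold changes of 0.28 in low-iron and -0.25 in high-iron against control, NR1I3 had -0.21 and 0.27, and NR1H4 had -0.08 and -0.20.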

How the data were processed

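Liver RNA of 9 Wujin pigs, 3 per diet, was sequenced from poly(A) libraries. The authors aligned reads to Sscrofa11.1 with HISAT2 and assembled transcripts with StringTie, per the submitters' processing notes, and deposited FPKM per gene, with no counts. The reads behind a single FPKM value were not recovered here, so no counting error is given, and the summed FPKM of a library ranged from 416922 to 456420. Groups came from the series design text, and diets and ages from the study's methods. Separate pigs gave the libraries, so group differences were set against a spread between pigs. In limma that spread is drawn toward a trend over all genes, so an interval can be wider or narrower than a gene's own values give. For ALB the SD between pigs of a group was 0.246, while the limma SE of a difference was 0.40. The permutation p of a correlation refers to pairings of libraries.

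Rows carry serial numbers, not symbols. A number was read as the place of the gene in the Sscrofa11.1 annotation, counted from 0, and all 20660 numbered rows then fell on protein-coding genes, against 15031 with a shift of 1 place. The remaining 5258 rows are new genes and hold no member. Promoter windows were cut from the genome at annotated starts, and no protein sequences were used here.

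Levels were tested as log2(FPKM + 0.1), a scale that understates the change of low genes, for genes with a mean of at least 0.5 FPKM. The fit was limma 3.58.1 in R 4.3.3, with 1 fit of all 3 groups, a variance trend, 6 residual degrees of freedom and Benjamini-Hochberg adjustment over 12584 genes. Single values were tested with 2-sided exact permutation tests over 280 assignments for 3 groups or 362880 pairings for correlations (Python 3.11.15, scipy 1.17.1). The scripts were tested on simulated data. Alternatives were other pseudocounts, filters and scalings, array quality weights, a fit of only the groups compared, a replicate block and leaving out each library. Named genes were all members, the called or most abundant genes of each list (up to 3 where fewer were called), and the 5 genes most correlated with FGB, SOCS3 and each CRP copy. For SOCS3, 1 of these 5 is not reported here. Members, lists and tests were chosen with earlier results of these data known.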

Additional observations from a re-analysis of the deposited data

How the results depend on the processing

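No member was called in low-iron against control under any alternative. In high-iron against control 1 member, SOCS3, was called with median-of-ratios scaling (-1.12), quantile normalization (-1.09) and rescaling without the 10 highest genes (-1.01), a setting that for correlations was added after seeing the data. With 1 library left out, the number of members called ranged from 0 to 1 in high-iron against control (SOCS3, log2 -1.41 to -0.64) and from 0 to 1 in high-iron against low-iron (SOCS3 without high-iron 2, ITIH4 without high-iron 8). Median-of-ratios scaling moved the median of all genes by -0.125 in high-iron against control and quantile normalization by -0.108.

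Of 360 other values of member fold changes 22 changed sign, none of them called. In low-iron against control these were ITIH3 (-0.022) and ORM1 (-0.033) with median-of-ratios scaling, ORM1 with quantile normalization (-0.0036), without the 10 highest genes (-0.010) and with the animal number as replicate block (-0.0015), and ALB with array weights (0.031). In high-iron against control they were ITIH3 with median-of-ratios scaling (-0.10), LBP with TPM (0.0013) and the replicate block (0.061), FGB (0.11) and LBP (0.031) with quantile normalization, and ALB (0.058), ITIH3 (-0.074) and ITIH4 (-0.71) with array weights. In high-iron against low-iron they were ALB with TPM (0.029), without the 10 highest genes (0.036) and with array weights (0.027), CRP copy 2 (-0.027) and FGA (-0.0030) with median-of-ratios scaling, FGA with quantile normalization (-0.062), ITIH3 without the 10 highest genes (0.0059) and CRP copy 2 with array weights (-0.14). ALB is the highest gene of every library, so quantile normalization fixes it to the same value in each, and its fold change there is not given. FGB ranked 3 of all genes and is also set by its rank there, so its change of sign under that setting cannot be read as a change of level.

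With 1 library left out, log2 fold changes that crossed 0 ranged in low-iron against control from -0.21 to 0.065 for ALB, -0.58 to 0.36 for CRP copy 1, -0.046 to 0.16 for ITIH3, -0.85 to 0.35 for LBP, -0.15 to 0.35 for ORM1 and -0.52 to 0.11 for SOCS3. In high-iron against control they ranged from -0.23 to 0.060 for ALB, -0.087 to 0.12 for ITIH3, -0.46 to 1.01 for ITIH4, -0.63 to 0.56 for LBP and -0.31 to 0.29 for ORM1. In high-iron against low-iron they ranged from -0.13 to 0.12 for ALB, -0.17 to 0.31 for CRP copy 2, -0.10 to 0.28 for FGA, -0.045 to 0.32 for FGB, -0.033 to 0.25 for FGG, -0.15 to 0.062 for ITIH3, -0.38 to 0.82 for LBP and -0.43 to 0.24 for ORM1.

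For the correlations with FGB, quantile normalization gave r of 0.579 for FGA, 0.543 for FGG, 0.406 for CRP copy 2 and 0.611 for LBP, and 0.806 for FGA with FGG, none of which passed adjustment. That setting can remove variation of the highest genes, the chains among them, so it cannot decide whether genes moved with the chains. With TPM the r of ALB was -0.710 and passed. The sign of r changed for CRP copy 1 with TPM (0.007), median-of-ratios scaling (0.039), quantile normalization (0.038) and without the 10 highest genes (0.025), for SOCS3 with TPM (0.010), median-of-ratios scaling (0.166) and without the 10 highest genes (0.045), and for ORM1 with median-of-ratios scaling (0.098) and without the 10 highest genes (0.000). With 1 library left out r ranged from 0.771 to 0.899 for LBP, -0.839 to -0.671 for ALB, -0.251 to 0.212 for CRP copy 1, -0.379 to 0.117 for ORM1 and -0.243 to 0.263 for SOCS3.

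The exact permutation p with 1 library left out ranged from 0.132 to 0.679 for FGA to FGB, 0.371 to 0.871 for FGG to FGB and 0.025 to 0.414 for FGA to FGG, and from 0.0464 to 0.493 for SOCS3 over the 3 groups. Log2 fold changes against control ranged from -0.77 to -0.23 for FGB, -0.75 to -0.26 for FGA and -0.68 to -0.15 for FGG in low-iron, and from -0.66 to -0.12, -0.71 to -0.22 and -0.61 to -0.08 in high-iron.

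Animal numbers 2 and 7 occur in both low-iron and high-iron. Between libraries of the same number, deviations from the group means correlated at 0.018 and 0.021 over 12584 genes. With 3 pigs in a group, these values cannot tell whether a litter or pen was shared. With the animal number as replicate block (consensus correlation 0.201) 0 members were called. Counts of all genes called were 34, 74 and 67 with a pseudocount of 1, 331, 504 and 458 with no filter, and 171 and 334 with array weights in low-iron against control and high-iron against low-iron. With 1 library left out, those moved by over 1.5 times were 186 without low-iron 2, 209 without control 5 and 171 without control 6 in low-iron against control, 296 without control 4 in high-iron against control and 333 without low-iron 3 in high-iron against low-iron. The cause of these moves was not tested. Depth limits could not be given because no counts were used.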

Other observations

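SAA4, a constitutive serum amyloid A gene of the liver, was singled out with its values in view. Its level was 0.449 FPKM in low-iron 2, 0.893 FPKM in low-iron 7 and 0.878 FPKM in control 5, and between 29.7 and 77.8 FPKM in the other 6 libraries. The 3 libraries with little SAA4 are among the 4 with the lowest fibrinogen chains, while the other of those 4, high-iron 8, had 36.6 FPKM. SAA2 and SAA3, of the same family, did not have these 3 libraries as their lowest. SAA2 measured 360, 342 and 1516 FPKM in the low-iron, 617, 618 and 945 FPKM in the control, and 1165, 1108 and 550 FPKM in the high-iron group. SAA3 measured 22.6, 84.9 and 66.1 FPKM, 31.0, 37.6 and 36.6 FPKM, and 65.5, 218 and 31.0 FPKM in the same order. The log2 fold change of SAA4 was -2.24 in low-iron against control (SE 1.88, limma adjusted p = 1.000) and 1.22 in high-iron against control (SE 1.88, limma adjusted p = 0.994), so it was not called.

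HAMP, the gene of hepcidin, which is itself induced by interleukin-6, measured 3.84, 2.02 and 70.5 FPKM in the low-iron, 50.3, 42.0 and 16.2 FPKM in the control, and 52.3, 6.87 and 21.8 FPKM in the high-iron group. Its highest library, low-iron 7, had the lowest FGA, LBP and ITIH4 of all libraries, but also the highest SAA2 (1516 FPKM). No member or HAMP value separated the diets.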
